A study of Mus musculus with 2 samples.

Results

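The D-type cyclins Ccnd1, Ccnd2 and Ccnd3, their kinases Cdk4 and Cdk6, the kinase inhibitors Cdkn1b and Cdkn2c, the transcription factors E2f2 and E2f4 and the pocket protein gene Rb1 were examined as 10 genes of the cell cycle's entry into S phase. They were chosen by name, and a gene was given every peak with a summit inside it or at most 50 kb from one of its transcription start sites (TSSs). By this rule 9 of the 10 genes had a peak, and together they held 44 of the 17043 peaks of the optimal list on the 19 autosomes and X. The peaks came from chromatin immunoprecipitation and sequencing with an antibody against EP300, a histone acetyltransferase that is brought to enhancers and promoters by transcription factors. The tissue was liver from embryos of mouse strain B6NCrl at 14.5 days, pulverized and pooled from several dissections, with males and females mixed and no genetic change or treatment in the labels. There were 2 libraries in 1 group, numbered as biological replicates but with the same biosample label, so that their spread may be technical.

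D-type cyclins bind the kinases CDK4 and CDK6, and the pair phosphorylates RB1, which then lets go of the E2F factors that drive genes of DNA replication. Inhibitors of the INK4 family, such as the product of Cdkn2c, hold the kinases themselves, and those of the CIP/KIP family, such as the product of Cdkn1b, act on whole cyclin and kinase complexes. In the fetal liver this circuit sets how often an erythroid precursor divides before it leaves the cycle: mice without Ccnd3 have fewer and larger red cells, and loss of E2f4 or Rb1 impairs the making of red cells in the embryo.

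The genes ran from none to 16 peaks. Ccnd3 had 16, Cdk6 9, Cdkn1b 6, E2f4 6, Ccnd2 2, Cdk4 2, and Cdkn2c, E2f2 and Rb1 had 1 each, while Ccnd1 had none. The share of genes with a peak was 90% (9 of 10, 95% Wilson interval 59.6 to 98.2), and among all 21728 protein-coding genes it was 54.4%. The genes were chosen with earlier results of these data known, so the interval covers counting error only and tests no excess. The median was 2 peaks per gene over the 10 genes and 1 over all coding genes. The strongest peak had a median signal of 69.5 over the 9 genes with a peak and of 74.3 over the 11815 coding genes with a peak. At the median the genes thus had more peaks than all coding genes, and a strongest peak of about the same signal. The signal is the peak caller's own value, deposited by the authors on a scale of its own for each list, and was used only to rank and describe peaks within a list. The liver was measured as a whole, so the number of cells that carried EP300 at a site and the amount per cell cannot be told apart.

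**Figure D1:**
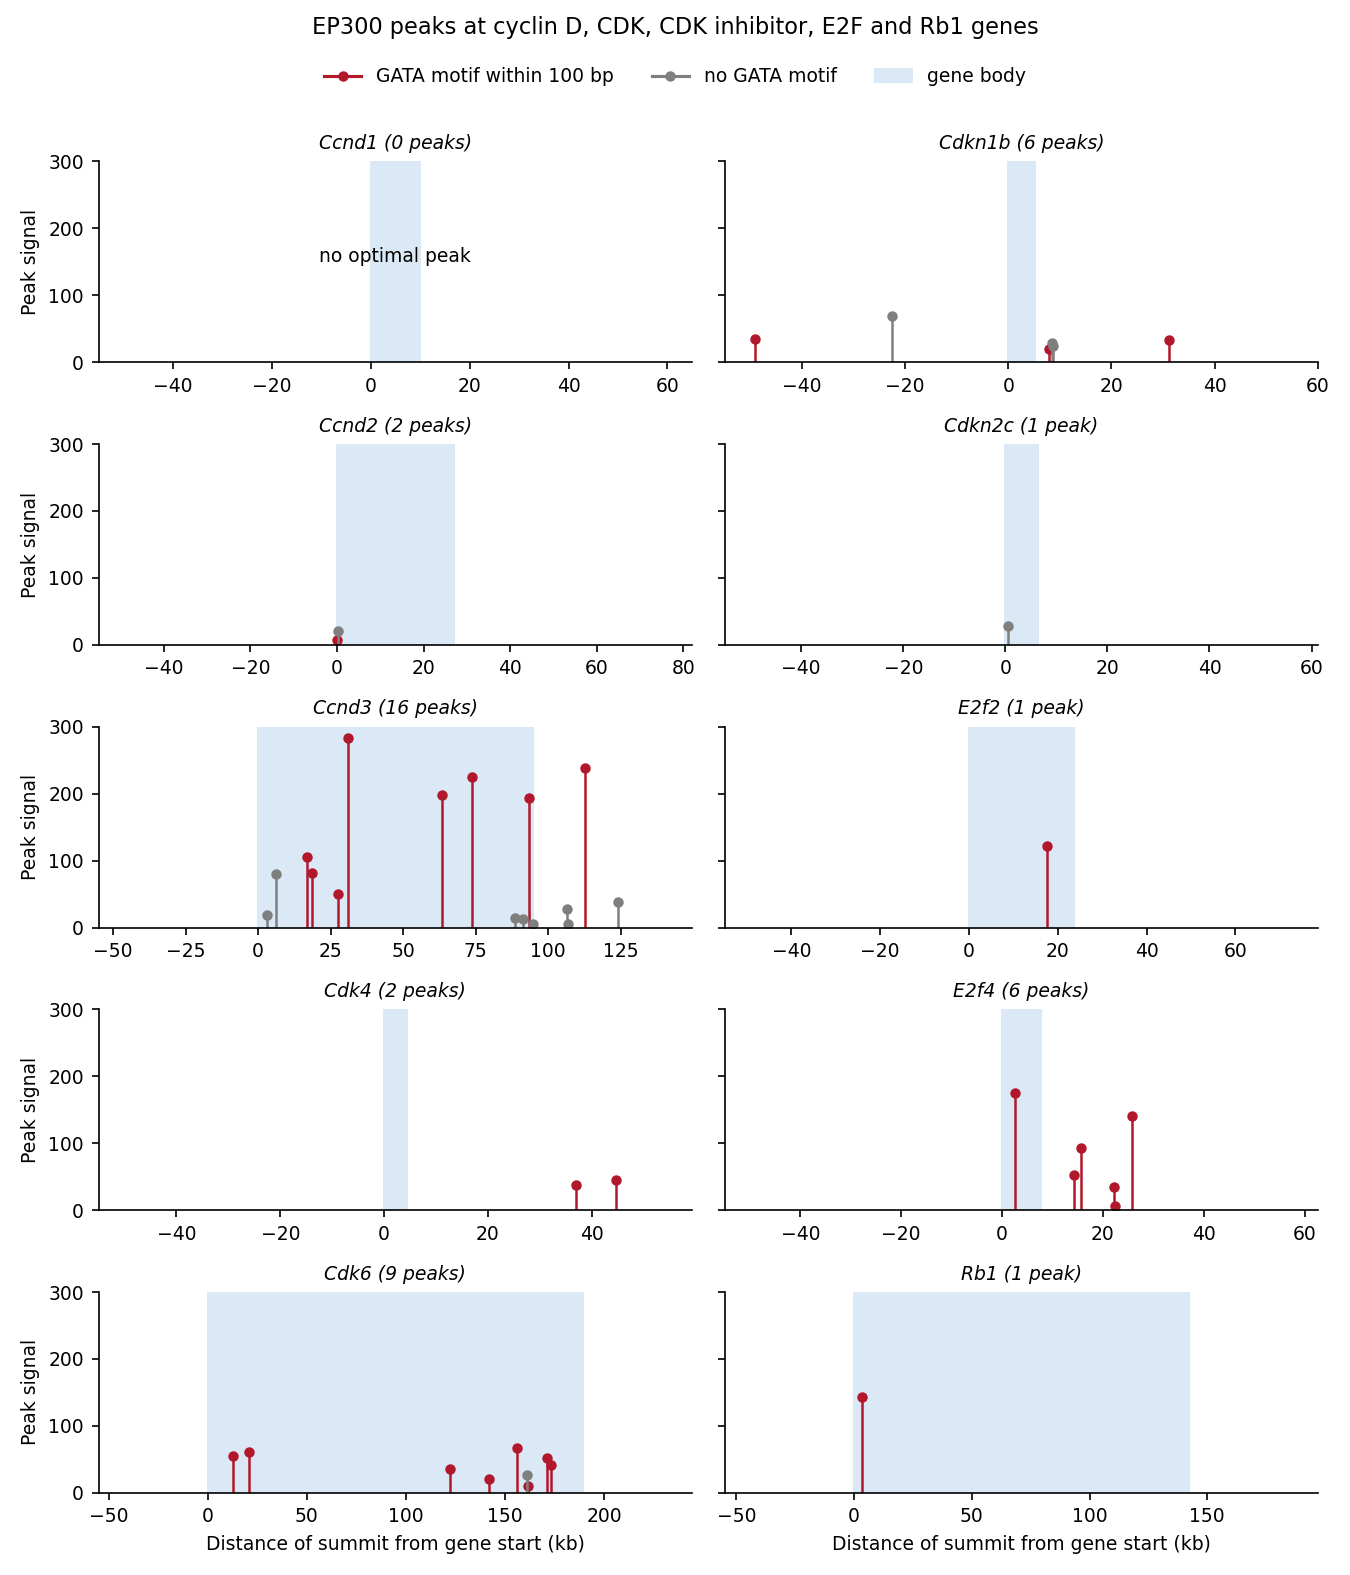
Optimal EP300 peaks at each of the 10 genes: the horizontal axis gives the distance of the summit from the start of the gene in kb along its direction of transcription, the vertical axis the deposited signal, and shading the gene body. Red stems have a GATA motif within 100 bp of the summit and grey stems do not; Ccnd3 carried 16 peaks, up to 282, and Ccnd1 none.

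Among the 10 genes, the strongest EP300 peaks lay at Ccnd3. In erythroid cells cyclin D3 sets the number of divisions before the final one. Of its 16 peaks, 11 lay inside the gene, which spans 94641 bp on chromosome 17, and 70 of the 21728 coding genes (0.322%) had more peaks by the same rule. With 19 starts its window spanned 192 kb, and the genes compared were not matched for window length. The first peak, in an intron 30907 bp from the gene start (in mm10 coordinates chr17:47535812-47536128), had a signal of 282 and ranked 569 in the optimal list. It ranked 430 in replicate 1, with a signal of 154, and 737 in replicate 2, with a signal of 132. The second (chr17:47617713-47617987, signal 239, rank 883) lay past the end of Ccnd3, 112787 bp from its start, in introns of Med20 and Gm20517. It ranked 910 in replicate 1 and 813 in replicate 2. The third (chr17:47578710-47578945, signal 225, rank 1014) lay in an annotated exon or untranslated region of Ccnd3 and ranked 930 in replicate 1 and 1111 in replicate 2. All 3 had a score of 1000, the highest on the deposited scale of reproducibility. This score was common: 34 of the 44 peaks (77.3%) had it, down to the weakest, of signal 5.32, and 69.5% of all optimal peaks did. Each of these 3 Ccnd3 peaks lay among the strongest peaks of both libraries.

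The other 13 peaks at Ccnd3 had signals from 5.32 to 198. A GATA motif lay within 100 bp of the summit in 8 of the 16, namely the 7 strongest and the 9th, against 74.7% of all optimal peaks. The motif was read, on either strand, as the letters GATA with an A or a T before them and an A or a G after them. The summits of 4 peaks lay within 1 kb of a TSS: 2 at internal starts of Ccnd3 and 2 at the shared promoter of Bysl and Med20, and none of these 4 had a GATA motif. The peaks with a GATA motif at Ccnd3 thus all lay more than 1 kb from an annotated start. Both libraries had a summit within 100 bp of 12 of the 16 peaks, and the 4 without were among the 5 weakest.

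The bases around the summit are shown for 4 of the strongest peaks at Ccnd3, because the GATA letters differ in number and setting between them. Sequences here are the plus strand of mm10 and run 60 bases to either side of the summit unless said otherwise. Capitals mark a GATA match. Where a GATA match belongs to a composite, the triplet CTG (or CAG on the other strand) is in capitals too. The composite, the form bound by complexes of GATA1 and TAL1, was read as CTG followed after 7 to 9 bases by a GATA match. The windows are chr17:47535898-47536018 for peak 1, chr17:47617778-47617898 for peak 2, chr17:47568485-47568605 for peak 4 and chr17:47598269-47598389 for peak 5.
Ccnd3 peak 1: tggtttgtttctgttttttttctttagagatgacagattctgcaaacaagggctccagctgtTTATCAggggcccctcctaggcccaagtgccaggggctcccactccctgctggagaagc
Ccnd3 peak 2: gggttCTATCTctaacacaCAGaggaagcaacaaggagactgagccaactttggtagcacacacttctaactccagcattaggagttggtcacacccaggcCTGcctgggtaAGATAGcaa
Ccnd3 peak 4: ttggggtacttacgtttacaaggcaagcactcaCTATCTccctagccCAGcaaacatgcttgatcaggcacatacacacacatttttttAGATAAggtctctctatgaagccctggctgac
Ccnd3 peak 5: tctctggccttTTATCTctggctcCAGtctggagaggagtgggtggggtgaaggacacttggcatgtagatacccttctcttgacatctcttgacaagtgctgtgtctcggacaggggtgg
Peak 1 had a single GATA match that began 2 bp from the summit and no composite. Peak 2 had composites on both strands, 1 on either side of the summit. Peaks 4 and 5 had 1 composite each.

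Ccnd2 and Ccnd1 stood at the other end. GATA1 is known to repress Ccnd2 as mouse erythroid cells mature. Its 2 peaks overlapped each other at the promoter, with signals of 20.6 (chr6:127151780-127152119, 243 bp inside the gene) and 6.52, and ranks of 13560 and 16867 in the optimal list. The stronger ranked 13055 in replicate 1, with a signal of 12.4, and 103319 in replicate 2, with a signal of 4.95. The weaker had a replicate 2 summit of rank 92486 and no replicate 1 summit within 100 bp. Neither was in the conservative list, and 50.4% of all coding genes had a stronger peak than Ccnd2. The sole GATA match at Ccnd2 lay 84 bp from the summit of the weaker peak. The stronger Ccnd2 peak thus lay in the lower part of the list and was uneven between the libraries, and the weaker lay near the end of the list.

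Ccnd1 had no optimal or conservative peak. In the pooled list, which is longer and unfiltered, 10 peaks lay in its window, the strongest with a signal of 11.0 and rank 29207 (chr7:144903123-144903462, in an intron of Gm39119 and 34904 bp from the nearest Ccnd1 start). A replicate 1 summit of signal 7.65 and rank 23709 lay within 100 bp of it, and no replicate 2 summit did. The nearest optimal summits outside the windows were stronger than any inside for both genes. For Ccnd1 they lay 129847, 149352 and 151453 bp from its nearest TSS, with signals of 76.1, 127 and 245. For Ccnd2 they lay 169101 and 170382 bp away, with signals of 296 and 371. The stronger of the pair ranked 179 in the optimal list, 109 in replicate 1 and 293 in replicate 2, and its nearest coding gene was Parp11. Each of these 5 had a GATA motif, as did 86.3% of all optimal peaks away from promoters. Which gene such a peak serves was not tested.

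At the kinases, Cdk6 had 9 peaks and Cdk4 had 2, all in introns. Cdk6 restrains the maturation of erythroid cells when it is kept high, and GATA1 represses it in the mouse. All 9 of its peaks lay inside the gene, which spans 189524 bp on chromosome 5, and 427 coding genes (1.97%) had more. The window of Cdk6 spanned 240 kb, and here too genes were not matched for window length. The strongest (chr5:3497536-3497875) had a signal of 67.6 and rank 5094, with ranks of 4853 in replicate 1 and 5731 in replicate 2. The second (chr5:3362192-3362531) had a signal of 61.5 and rank 5577, with ranks of 6406 and 5459 in replicates 1 and 2. The third (chr5:3354306-3354645) had a signal of 54.4 and rank 6217, with ranks of 5450 and 8340. These 3 scored 1000, and none of the 9 was within 1 kb of a TSS. The other 6 had signals from 10.8 to 52.2. Cdk6 thus had many peaks of middling signal, whereas 5 of those at Ccnd3 had signals from 194 to 282.

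A GATA motif was present in 8 of the 9 peaks at Cdk6, against 86.3% of all optimal peaks away from promoters. Both libraries had a summit within 100 bp of 8. The first peak is shown over 90 bases to either side of the summit (chr5:3497616-3497796), with RUNX matches in capitals besides the GATA match. RUNX factors act in blood stem and progenitor cells, and their site was read as TGTGGT or TGCGGT. The second, over 80 bases to either side (chr5:3362282-3362442), held 3 GATA matches, and the third (chr5:3354416-3354536) 1 in a composite.
Cdk6 peak 1: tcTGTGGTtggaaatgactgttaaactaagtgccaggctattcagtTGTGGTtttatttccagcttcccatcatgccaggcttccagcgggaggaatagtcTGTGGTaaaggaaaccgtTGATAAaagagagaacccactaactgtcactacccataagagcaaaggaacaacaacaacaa
Cdk6 peak 2: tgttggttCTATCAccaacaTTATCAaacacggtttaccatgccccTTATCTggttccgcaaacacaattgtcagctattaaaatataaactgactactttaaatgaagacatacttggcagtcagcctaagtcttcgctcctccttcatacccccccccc
Cdk6 peak 3: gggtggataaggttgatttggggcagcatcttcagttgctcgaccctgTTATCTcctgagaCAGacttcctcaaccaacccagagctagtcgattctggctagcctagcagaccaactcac
The RUNX letters occurred 3 times in the first peak and in none of the other 8 at Cdk6.

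Both peaks counted at Cdk4 lay in introns of its neighbour Os9, at 34469 and 42066 bp from the nearest Cdk4 start. The stronger (chr10:127107972-127108311) had a signal of 45.7 and rank 7329, with ranks of 9747 in replicate 1 and 6390 in replicate 2. The weaker (chr10:127100375-127100714) had a signal of 36.9 and rank 8856, with ranks of 9254 and 10902. Both scored 1000. Their order differed between the libraries, the weaker ranking higher in replicate 1. Each held 3 GATA matches within 100 bp of the summit, and the weaker a composite as well, as the windows chr10:127108082-127108202 and chr10:127100485-127100605 show.
Cdk4 peak 1: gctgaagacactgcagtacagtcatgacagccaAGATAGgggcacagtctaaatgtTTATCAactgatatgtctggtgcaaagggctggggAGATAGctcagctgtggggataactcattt
Cdk4 peak 2: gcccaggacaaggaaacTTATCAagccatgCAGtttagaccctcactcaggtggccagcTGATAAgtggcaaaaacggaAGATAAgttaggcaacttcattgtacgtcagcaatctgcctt
No peak lay within 20 kb of a Cdk4 start, and 8 lay within 100 kb, so the count at this gene depends on the window.

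Among the inhibitors, Cdkn1b had 6 peaks, none of them inside the gene, and Cdkn2c had 1 at its promoter. GATA1 raises both genes as mouse erythroid cells leave the cycle. The strongest peak at Cdkn1b (chr6:134897777-134898116) had a signal of 69.5 and rank 4950, with ranks of 4563 in replicate 1 and 6596 in replicate 2. It lay 22454 bp before the gene, at the shared promoter of Gpr19 and 2810454H06Rik. The second (chr6:134871043-134871382, signal 34.8, rank 9319) lay in an intron of Gpr19, 49188 bp from the Cdkn1b start and just inside the window. The third (chr6:134951385-134951724, signal 32.9, rank 9775) lay in an exon of Lockd, with a score of 850 in place of 1000 for the first 2. Their ranks were 10135 and 9942 for the second, and 9669 and 9804 for the third, in replicates 1 and 2. Just outside the window, 64395 bp from the start, a peak in Apold1 had a signal of 99.1. Every one of the 6 peaks had a summit of both libraries within 100 bp.

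The other 3 peaks at Cdkn1b lay together at the promoter of Lockd, 7847 to 8744 bp past the Cdkn1b start. Lockd is a long noncoding RNA gene whose promoter region acts as an enhancer of Cdkn1b in mouse erythroblasts. The signals of these 3 peaks were 29.1, 24.7 and 19.3. In replicate 1 they ranked 17594, 50332 and 28678, and in replicate 2 they ranked 8989, 8791 and 14788. All 3 thus ranked higher in replicate 2. The weakest had an E2F match, read as TTTNNCGC on either strand, that began 1 bp before the summit, shown in capitals in the window chr6:134928188-134928308.
Cdkn1b peak 6: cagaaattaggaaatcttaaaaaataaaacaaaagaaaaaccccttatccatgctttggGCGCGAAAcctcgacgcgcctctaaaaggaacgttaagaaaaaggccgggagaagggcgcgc
A GATA match lay 94 bp from this summit, outside the bases shown, and the other 2 Lockd peaks had none.

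Cdkn2c had 1 optimal peak (chr4:109666461-109666800), 558 bp inside the gene at its promoter, with a signal of 28.5, a score of 1000 and rank 10942. It ranked 10422 in replicate 1, with a signal of 15.7, and 14386 in replicate 2, with a signal of 11.8. Within 100 bp of its summit lay an E2F match 44 bp away and no GATA match. Its rank was close between the libraries, unlike that of the promoter peaks at Ccnd2.

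In the optimal list the genes with the strongest single peak after Ccnd3 were E2f4, Rb1 and E2f2, whereas in both libraries a peak of E2f2 that is missing from the optimal list ranked above those of E2f4 and Rb1. E2F4 is the main repressive E2F of resting cells and pairs with the pocket proteins. The first of its 6 peaks lay in its own intron, 2523 bp from the gene start (chr8:105300101-105300293), with a signal of 175 and rank 1608. It ranked 1537 in replicate 1, with a signal of 88.8, and 1689 in replicate 2, with a signal of 87.6. The second (chr8:105323280-105323438, signal 139.9, rank 2271) and the third (chr8:105313088-105313427, signal 92.9, rank 3672) lay in coding exons of the neighbour Lrrc29. The second ranked 2157 in replicate 1 and 2447 in replicate 2, and the third 5051 and 2709. These 3 scored 1000. The other 3 had signals from 5.54 to 53.2, lay in introns of Lrrc29 or between genes, and 1 of them had no replicate 2 summit within 100 bp. Only the first had E2f4 as its nearest coding TSS, and for the other 5 it was that of Elmo3 or Lrrc29. Of all optimal peaks away from promoters 86.3% had a GATA motif, and 27.7% of all optimal peaks had a composite. At E2f4 all 6 had a GATA motif and 5 a composite, including the intronic peak (chr8:105300126-105300246).
E2f4 peak 1: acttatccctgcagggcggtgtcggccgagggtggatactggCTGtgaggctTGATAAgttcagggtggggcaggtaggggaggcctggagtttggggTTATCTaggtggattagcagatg
Here the composite lay on the plus strand 18 bp before the summit, with a further GATA match 38 bp past the summit.

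Rb1 had a single peak, in an intron 3510 bp from the start of a gene of 142150 bp (chr14:73322224-73322352). Its signal was 143, its score 1000 and its rank 2191. It ranked 2379 in replicate 1, with a signal of 66.1, and 2018 in replicate 2, with a signal of 78.1. The bases around its summit (chr14:73322252-73322372) held 2 GATA matches on the minus strand, 1 of them beginning 2 bp from the summit, and no composite.
Rb1 peak 1: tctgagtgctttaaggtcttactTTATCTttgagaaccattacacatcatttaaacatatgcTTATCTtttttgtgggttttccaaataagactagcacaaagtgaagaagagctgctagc
The gene and the 50 kb around its starts held no other optimal summit, and the nearest outside was at the promoter of Itm2b, 59713 bp away, with a signal of 74.2. Rb1 thus had a lone peak in the optimal list, whereas Ccnd3 and Cdk6 had runs of them. The count was 3 in the top peaks of either library alone, 2 among the highest pooled peaks and 4 in the optimal list with a window of 100 kb.

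E2f2 encodes an activator E2F that also acts in the maturation of erythroid cells. It had 1 optimal peak, in an intron 17636 bp from the gene start (chr4:136189945-136190068), with a signal of 122, a score of 1000 and rank 2687. It ranked 2391 in replicate 1, with a signal of 65.8, and 3030 in replicate 2, with a signal of 57.1. This peak held a composite and, 17 bp past the summit, an E2F match, both in capitals in the window chr4:136189970-136190090.
E2f2 peak 1: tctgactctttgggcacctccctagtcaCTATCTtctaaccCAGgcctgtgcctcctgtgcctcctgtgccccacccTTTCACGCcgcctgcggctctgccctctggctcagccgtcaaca
A CACCC box, the kind of site bound by KLF1, ended where the E2F match began.

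The library lists held more at E2f2 than the optimal list did. Taking as many top peaks from each library as the optimal list holds, 17055, and pairing summits within 100 bp gave 11534 top peaks shared by both libraries, of which 33 lay at the 10 genes. Of the 3 shared top peaks at E2f2, only 1 was in the optimal list. The stronger of the other 2 lay in an intron 5748 bp from the gene start (chr4:136177970-136178313 in replicate 1). Its signal was 90.9 in replicate 1 and 118 in replicate 2, at ranks of 1474 and 977. It thus ranked above the optimal E2f2 peak in both libraries. The weaker lay 2501 bp from the gene start (chr4:136174723-136175066 in replicate 1), with signals of 42.8 in replicate 1 and 45.03 in replicate 2, at ranks of 3962 and 3923. Both are shown around the replicate 1 summit, in the windows chr4:136178082-136178202 and chr4:136174835-136174955.
E2f2 library peak 1: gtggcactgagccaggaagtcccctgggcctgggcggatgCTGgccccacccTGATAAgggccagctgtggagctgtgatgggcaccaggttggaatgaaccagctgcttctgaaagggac
E2f2 library peak 2: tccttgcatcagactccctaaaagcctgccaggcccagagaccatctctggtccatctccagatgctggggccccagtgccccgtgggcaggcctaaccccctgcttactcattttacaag
The stronger held a composite whose spacer holds a CACCC box, and the weaker had no GATA match.

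The pooled list, from which the optimal peaks were drawn, had no summit between positions 136163477 and 136185186 of chromosome 4. In this stretch of 21709 bp replicate 1 had 13 summits and replicate 2 had 12. Such stretches were rare: of the 11534 shared top peaks, 12 had no pooled summit within 1000 bp. Of these 12, 2 were at E2f2 and the other 10 had Eral1, Zc3h4, Hist2h3b, Hist2h4 or Klf16 as the nearest coding gene. Over the whole genome, 440 of the 11534 shared top peaks (3.81%) had no optimal summit within 100 bp. At the other 9 genes every shared top peak was in the optimal list, though Ccnd1 and Ccnd2 had no shared top peak to count. The cause of the empty stretch was not tested. The count of 1 peak at E2f2 is therefore a count of the optimal list, and each library's own top list gave 5.

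**Figure D2:**
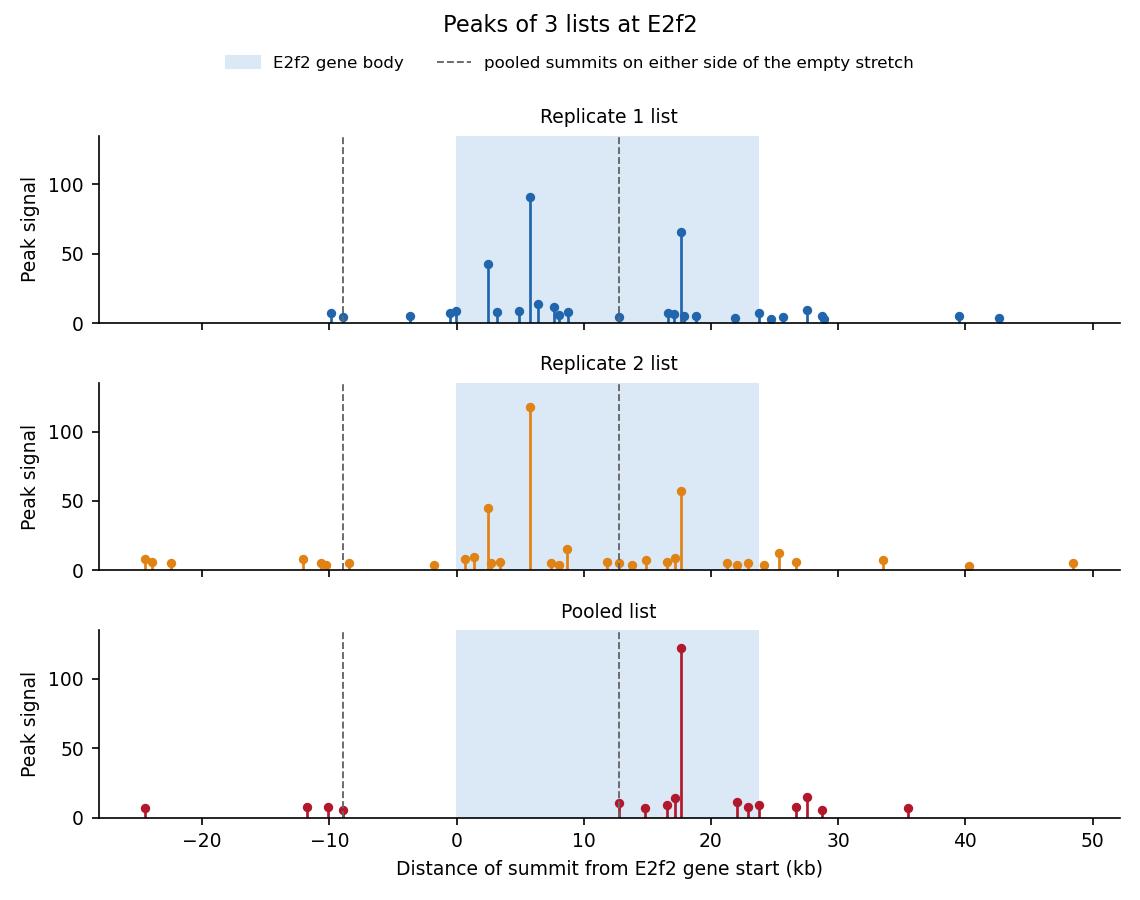
All peaks at E2f2 in the lists of replicate 1, replicate 2 and both pooled: the horizontal axis gives the distance of the summit from the gene start in kb, the vertical axis the signal on each list's own scale, and shading the gene body. Dashed lines mark the pooled summits on either side of the stretch of 21709 bp in which both libraries have peaks, up to 90.9 and 118, and the pooled list has none.

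Ordered by the signal of the strongest peak in the optimal list, the genes ran Ccnd3, E2f4, Rb1, E2f2, Cdkn1b, Cdk6, Cdk4, Cdkn2c and Ccnd2. Neighbours in this order can be set against the libraries by the ranks of the same peak in replicates 1 and 2. Those ranks overlapped between Cdkn1b (4563 and 6596) and Cdk6 (4853 and 5731), and between Cdkn2c (10422 and 14386) and Ccnd2 (13055 and 103319). The ranks of the other neighbours did not overlap, though those of the optimal peaks of Rb1 (2379 and 2018) and E2f2 (2391 and 3030) lay close in replicate 1. The place of E2f2 held only for the optimal list: its strongest peak in the libraries' own lists, which is missing from the optimal list, ranked 1474 and 977. By it E2f2 came second after Ccnd3 in both libraries, ahead of E2f4 (1537 and 1689) and Rb1. In the optimal list, among coding genes with a peak, 8.05% had a stronger one than Ccnd3, 21.7% than E2f4, 28.2% than Rb1 and 33.7% than E2f2. For Cdkn1b and Cdk6 the shares were 52.0% and 52.9%, and for Cdk4, Cdkn2c and Ccnd2 they were 66.8%, 83.0% and 92.6%. The genes thus spanned nearly the whole range, with 4 in the upper part and 3 in the lower.

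**Figure D3:**
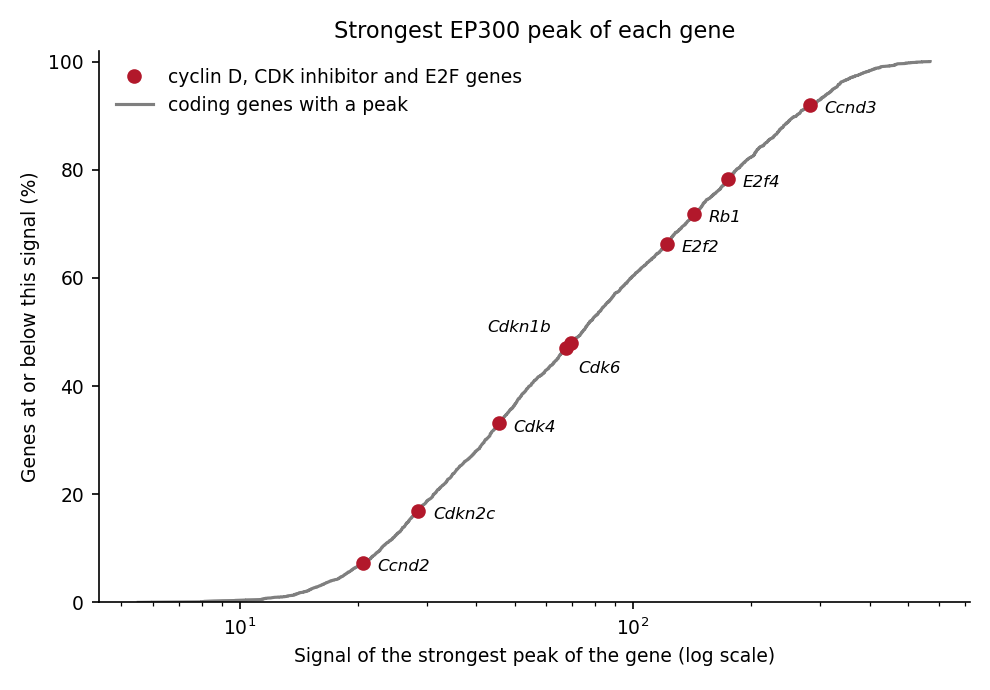
Signal of the strongest peak of each of the 9 genes with a peak (red points) on the cumulative distribution over the 11815 coding genes with a peak (grey line); the horizontal axis is the deposited signal on a log scale and the vertical axis the percentage of genes at or below it. Ccnd3, at 282, and E2f4, at 175, lie high on the curve and Ccnd2, at 20.6, near its foot.

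Gene length bears on these counts, because the rule takes in the whole gene. Per 100 kb of window, Ccnd3 had 8.33 peaks, Cdkn1b 5.99, E2f4 5.65 and Cdk6 3.76. Cdk4 had 1.95, Ccnd2 1.77, Cdkn2c 0.982, E2f2 0.923 and Rb1 0.449. Cdkn1b and E2f4, both short genes, thus came ahead of Cdk6 on this scale. The nearest coding TSS was the gene's own for 28 of the 44 peaks, and for the other 16 a neighbouring gene's start was closer.

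Most of the 44 peaks were intronic. The rule takes in whole genes, and no intron share is given for all optimal peaks, so this only describes the 44. Introns held 27, promoters 11 (25.0%, interval 14.6 to 39.4), exons or untranslated regions 3, coding exons 2 and intergenic sequence 1. Of all optimal peaks 26.2% were at promoters, so the share at these genes was close to that of the list. The median signal was 20.6 over the 11 promoter peaks at these genes and 31.5 over the 4473 promoter peaks of the whole list. Away from promoters it was 53.2 over the 33 peaks at these genes and 42.2 over the 12570 of the whole list. Apart from the peak at the Gpr19 promoter, no promoter peak at these genes had a signal above 29.1. Overlapping peaks made 39 separate stretches of the 44.

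A library summit counted at any rank among the 300000 of its list, down to 103319 in replicate 2 for the stronger Ccnd2 peak. The optimal list is itself a list of reproducible peaks, so the shares below are no independent check. Both libraries had a summit within 100 bp of 37 of the 44 peaks (84.1%, interval 70.6 to 92.1), and for the whole optimal list the share was 84.3%. Of the other 7, replicate 1 alone had a summit at 1, replicate 2 alone at 3, and neither at 3. The conservative list held 34 of the 44 with the same start, end and summit (77.3%, interval 63.0 to 87.2), against 78.4% of all optimal peaks. Counted by the gene rule alone, the conservative list had 42 peaks at these genes. Over the 37 peaks, Spearman's rho between the 2 ranks was 0.863, which describes only peaks seen in each library and tests nothing. The peaks farthest from equal ranks were the stronger one at Ccnd2, a Cdk6 peak that ranked 44600 in replicate 1 and 7121 in replicate 2, and a Lockd promoter peak at Cdkn1b that ranked 50332 and 8791. In contrast, the 7 strongest peaks at Ccnd3 and the first peaks at E2f4, Rb1 and E2f2 ranked no lower than 5354 in either library.

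**Figure D4:**
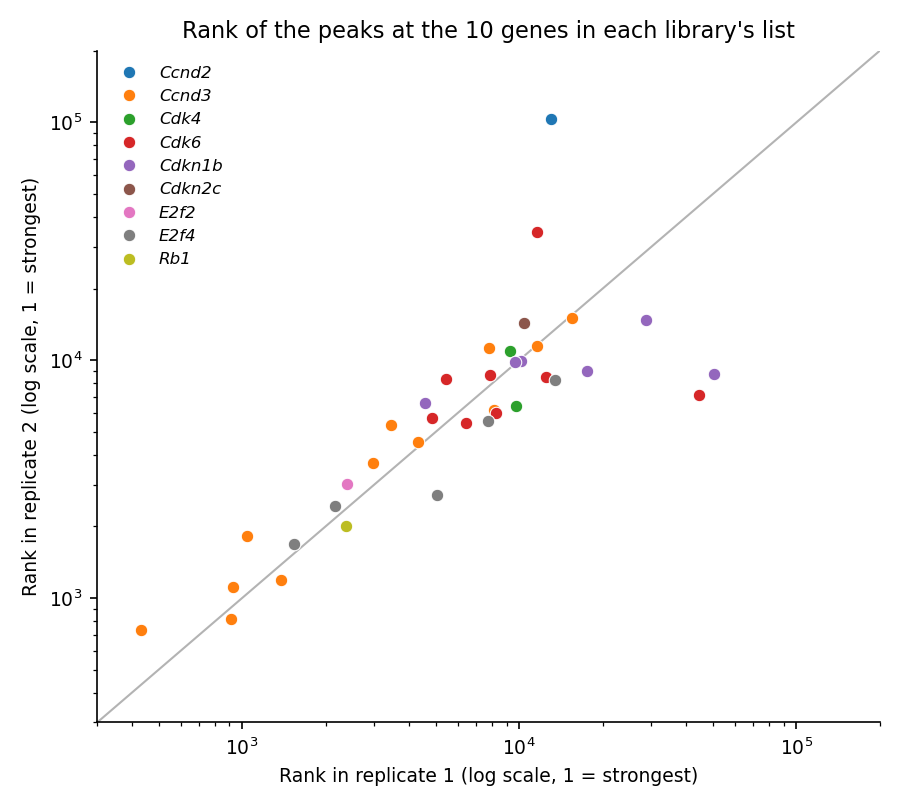
Rank of each of the 37 peaks found in both libraries, by signal, in replicate 1 (horizontal axis) and replicate 2 (vertical axis), both on log scales with 1 the strongest and coloured by gene; the line marks equal ranks. Strong peaks such as those of Ccnd3 lie along the line, and the Ccnd2 peak, at 13055 and 103319, lies farthest above it.

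A GATA motif was the most common motif at these genes, as in the list as a whole. It lay within 100 bp of the summit in 30 of the 44 peaks (68.2%, interval 53.4 to 80), and in 74.7% of all optimal peaks. At promoters the motif was present in 2 of 11 peaks (18.2%, interval 5.14 to 47.7), against 42.1% of all promoter peaks. Away from promoters it was present in 28 of 33 (84.8%, interval 69.1 to 93.4), against 86.3%. It was present in 20 of the 22 peaks above the median signal of the list (90.9%), against 86.3% of all such peaks, and in 10 of the 22 weaker ones (45.5%), against 63.1%. Peaks with the motif had a median signal of 53.8 and those without it 26.0. The 14 peaks without it had a higher median share of G and C, 57.2% against 49.5% in those with it. Split by place, the median signal was 20.6 at promoters and 53.2 away from them, and the G and C share 58.7% and 49.3%. The splits by motif and by place overlap and were not told apart. The strongest peak carried the motif at 6 of the 9 genes (66.7%), the exceptions being Ccnd2, Cdkn1b and Cdkn2c, whose strongest peaks lay at promoters. Among all coding genes with a peak the share was 74.8%.

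The composite lay at 14 of the 44 peaks (31.8%, interval 20 to 46.6), against 27.7% of all peaks, and includes a GATA site by its construction. A CACCC box, read as CCNCNCCC, lay at 19 (43.2%, interval 29.7 to 57.8), against 27.2%. This pattern also takes runs of C and overlaps GC boxes, as in the second Cdk6 peak, and the G and C share was 50.5% in the median over the 44 peaks and 48.3% over all peaks. E2F letters lay at 4 (9.09%, interval 3.59 to 21.2), against 2.85%, at 2 peaks of Cdkn1b and at those of Cdkn2c and E2f2. The E2F pattern holds the pair CG, and peaks rich in that pair can match it more often. The pair numbered 18 and 15 at the Cdkn1b peaks, 9 at Cdkn2c and 4 at E2f2, beside a median of 3 over all optimal peaks. The cell cycle genes homology region, TTTGAA, found at genes of late cell cycle, lay at 8 (18.2%), against 12.8%. NF-Y letters, CCAAT, lay at 6 (13.6%), against 21.6%, and RUNX letters at 6, against 20.8%. The HNF4 letters of hepatocytes, CAAAGNNCA, lay at 0 of 44, which allows a share of up to 6.82%, against 4.78% of all peaks. GC box letters, GGGCGG, lay at 8 (18.2%), against 12.4%. The letters of AP-1 and NFE2 (TGACTCA), ETS (CCGGAAG), forkhead (TGTTTAC), STAT (TTCNNNGAA) and CEBP factors (TTGCNNAA) lay at 1 to 3 of the 44 peaks each, against 3.17 to 8.06% of all peaks. For the CACCC box and the E2F letters the share over all peaks lay just below the interval, and for the other motifs inside it. The intervals take the 44 peaks as separate, though many lie at the same gene and some overlap. Many motifs were also read, so the intervals cover counting error only and test no excess of any motif. These are matches of letters in a window of 201 bp, not sites shown to be bound.

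**Figure D5:**
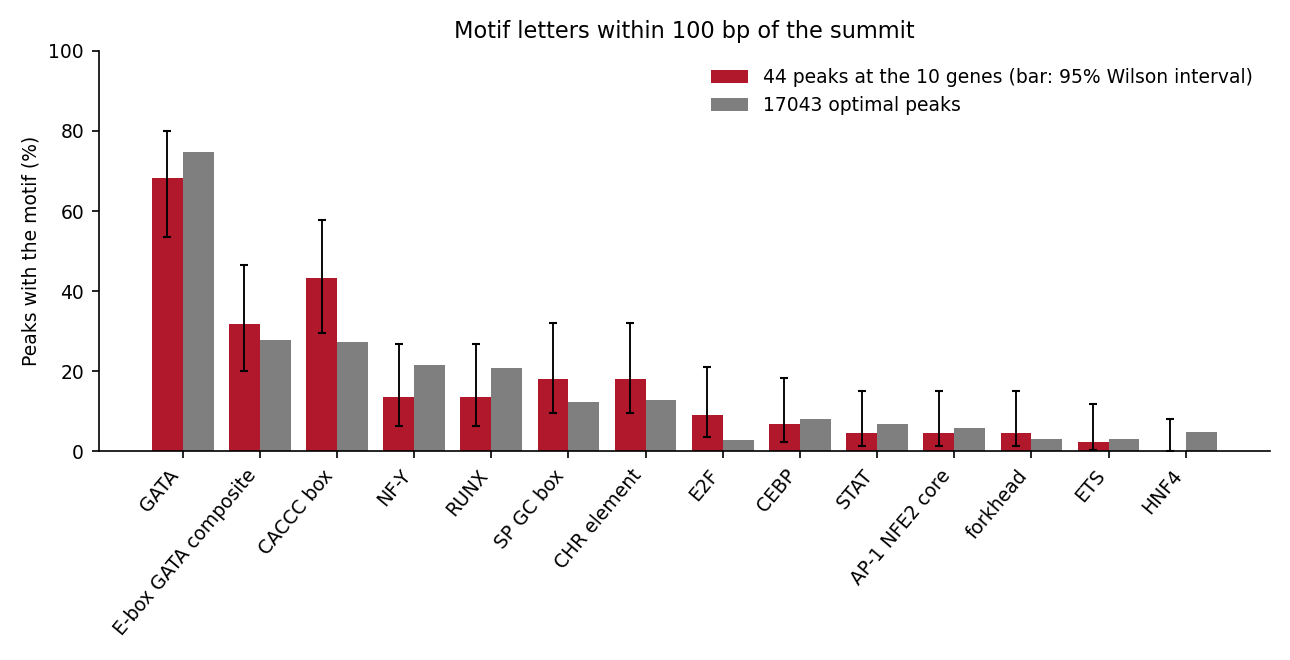
Percentage of peaks with the letters of each motif within 100 bp of the summit, in the 44 peaks at the 10 genes (red, with 95% Wilson intervals) and in all 17043 optimal peaks (grey). GATA letters lead in both, at 68.2% and 74.7%, and the CACCC box differs most, at 43.2% and 27.2%.

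The wider pathway was taken as 36 other genes of the step from G1 to S. Of these, 27 had a peak by the same rule (75.0%, interval 58.9 to 86.3), against 54.4% of all coding genes, with a median strongest signal of 64.7. The strongest peaks were at Max, the partner of MYC (327, at the promoter of its neighbour Fntb), Ccne1, a cyclin of the next step (228, in its intron), and Tfdp2, an E2F partner (183, in its intron). Next came Fbxw7, which targets cyclin E for degradation (123), Cdk7, of the CDK-activating kinase (119), Cks1b, a subunit of CDK complexes (113), Ambra1, which brings D-type cyclins to degradation (109), and Ccne2 (104). Of these peaks, that of Ambra1 lay in its own intron. Those counted at Fbxw7, Cks1b and Ccne2 lay in Gm37240, Shc1 and Ints8, at 43067, 7702 and 41009 bp from the named gene's nearest start. That of Cdk7 lay between genes, 46709 bp away. Which gene these peaks serve was not tested. All 8 peaks at Tfdp2 had a GATA motif, as did all 6 at E2f4, against 74.7% of all optimal peaks. No peak lay at the inhibitor genes Cdkn1a, Cdkn1c, Cdkn2a and Cdkn2b, at E2f5 and E2f7, or at Lin37, Skp2 and Mycn. Of the inhibitor genes outside the 10, only Cdkn2d had peaks, 6 in all, the strongest (95.4) between genes and 22217 bp from its nearest start. Thus 1 of 5 had a peak, beside both Cdkn1b and Cdkn2c. The interval of that share, 3.62 to 62.45%, held the 54.4% of all coding genes.

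The tissue was checked by marker genes under the same rule. All 8 erythroid markers had a peak, with a median strongest signal of 348, and 6 of 8 hepatocyte markers did, with a median of 21.6, the exceptions being Ttr and Serpina1a. The hepatocyte markers Alb and Afp shared the same strongest peak, of signal 22.7, which was counted for both. Macrophage markers had a peak in 2 of 5 cases, with a median strongest signal of 31.1, and neuronal markers in 3 of 5, with a median of 46.3. Over all coding genes the share with a peak was 54.4% and the median 74.3. The shares of the hepatocyte (75%), neuronal (60%) and macrophage markers (40%) rest on 5 to 8 genes each, and their 95% Wilson intervals all held the share over all coding genes. The medians of the macrophage and neuronal markers were above that of the hepatocyte markers, so that among these lists only the erythroid markers stood above all coding genes in both measures. The median strongest signal at the 10 genes, 69.5, lay between those of the erythroid and the hepatocyte markers. How far each cell type contributed to the peaks described here was not tested.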

How the data were processed

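EP300 ChIP-seq peaks were analysed from 2 libraries of embryonic mouse liver. The starting point was the peak lists on mm10 that the authors deposited: 300000 peaks for each library and for the pooled list, 17055 in the optimal and 15728 in the conservative list of reproducible peaks. Per the deposited file listings, each library's list was made from its alignments and 1 control file; the aligner, the caller and its threshold were each not given in the sources used here. The signal of a peak is the caller's value as deposited by the authors, and the score, as deposited in the lists filtered by the irreproducible discovery rate, ends at 1000. Read totals were not used here, so the depth is unknown; intervals are 95% Wilson intervals and cover counting error only.

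Summits on the 19 autosomes and X were set on GENCODE vM21 (genes and TSSs, grouped by symbol) and on the GRCm38 sequence of RefSeq, which is mm10; 12 optimal peaks on unplaced contigs were left out. A summit within 1 kb of any TSS was called a promoter; otherwise coding exons, other exons, introns and intergenic sequence were taken in that order. Library summits within 100 bp counted as the same peak, ranks are by signal over each whole list, and motif letters were searched in 100 bp to either side of each summit, on both strands. For a count of 0 the limit given is 3 counts of the total. With 1 group no test between conditions was possible, and none over peaks or genes was made. The genes and lists were chosen with earlier results of these data known. All 10 genes are named, with their 3 strongest peaks in full; of the pathway genes, the 8 with the strongest peak and those without one are named. Peaks outside the windows, the library peaks at E2f2 and the genes at similar gaps were chosen after their values were seen. Alternatives were other lists, windows, match distances, motif settings and each library alone. The assignment of peaks and motifs was tested on simulated data. Python 3.11.15 was used with numpy 2.4.6, pandas 2.3.3, scipy 1.17.1, pysam 0.24.0 and matplotlib 3.10.9.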

Additional observations from a re-analysis of the deposited data

How the results depend on the processing

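The number of the 10 genes with a peak stayed between 7 and 9 under every list, window and assignment tried. The share over all coding genes moved with the setting. It was 39.8% for peaks above the median signal, where 7 of the 10 genes had a peak. With a window of 20 kb it was 40.7%, and with 100 kb it was 66.8%, where 9 of the 10 had a peak. Optimal peaks above the median signal left 22 peaks at these genes in place of 44; of these, 100% had a summit in both libraries, 90.91% had a GATA motif and 4.545% were at promoters. Peaks whose nearest coding TSS was the gene's own numbered 28. The share of peaks found in both libraries was 84.1% as reported, 93.02% in the top of the pooled list, 70.45% with summits within 50 bp, and 92.31% without peaks that lay within 500 bp of a stronger one, a setting chosen after seeing the data. Taking the top peaks of 1 library alone gave 8 to 9 genes, 48 to 52 peaks, 69.23 to 81.25% found in both libraries, 55.77 to 68.75% with a GATA motif and 27.08 to 30.77% at promoters; the lower shares in both libraries and with a GATA motif came without replicate 2. The causes were not tested. The other 46 of 55 values stayed within 1.5 times the count reported or within the 95% interval of the share reported. These 55 cover the counts over all 10 genes and the shares above. They leave out the counts at single genes, several of which moved by more than 1.5 times. Counts at single genes ranged from 0 to 8 for Cdk4 (windows of 20 and 100 kb), 1 to 4 for Rb1, 1 to 10 for Cdkn1b, 1 to 7 for E2f4 (fewest by nearest coding TSS), 1 to 5 for E2f2, 9 to 16 for Ccnd3, 5 to 10 for Cdk6 and 0 to 2 for Cdkn2c. Above the median signal Ccnd3 had 9 and Cdkn2c and Ccnd2 none, and Ccnd2 had none in the conservative list or without replicate 1 either. Leaving out Ccnd3 gave a GATA motif in 78.6% of the other 28 peaks. No paired analysis was possible because the 2 libraries form 1 group. Depth is unknown, so a gene without a peak, such as Ccnd1, cannot be said to lack EP300.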
